A study of Mus musculus with 5 samples.

Results

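The 10 genes described here, Mcm2, Mcm3, Mcm4, Mcm5, Mcm6, Mcm7, Cdc6, Cdt1, Cdc45 and Gins2, encode the replicative DNA helicase and factors that load or activate it. They were taken by symbol from the 31053 genes of 5 droplet-based single-cell libraries of mouse liver, and all 10 were found. Each gene was followed in hepatocytes, which were barcodes with at least 5000 unique molecular identifiers (UMIs, counts of captured RNA molecules), 10 to 30% of them mitochondrial, and at least 1% from Alb, Apoa1 and Ttr together. The gate held 5691 hepatocytes. Of these, 2106 came from mice at postnatal day 14 (P14), 925 from the adult control, and 1170, 719 and 771 from livers taken 24 h, 48 h or 96 h following partial hepatectomy (PHx), surgery that removes most of the liver, after which the remnant regrows.

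In late mitosis and G1 phase, Cdc6 and Cdt1 bring rings of Mcm2 to Mcm7 onto origins of replication that are marked by the origin recognition complex, a step called licensing. Cdc45 and the GINS complex, of which Gins2 is a subunit, then join the ring and turn it into the active helicase of S phase. Adult hepatocytes are mostly out of the cell cycle and re-enter it after PHx, whereas the liver of young mice is still growing.

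All groups were C57BL/6J mice with no transgene named in the labels, and there was 1 library per group, made with a 10x v3 kit from perfused liver cells passed over a dead-cell removal kit. The groups were untreated P14 mice, adult control mice, and adult mice at the 3 times after PHx, which was done at 8 weeks of age. The protocol field counts the adult control among the operated animals, but its title, source and age name it a control, and it was used as one. The description field carries a code of 2 for that library and of 1 for the rest, which cannot be told apart from the group. The labels give no sex and no number of mice. With 1 library per group there is no replicate error and no test. Intervals are 95% and cover counting error only, and all differences are between libraries. Below, 5 values in a row follow the order P14, adult control, 24 h, 48 h, 96 h.

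Median depth per hepatocyte ranged from 18527 to 38922.5 UMIs. All 8 further hepatocyte markers (among them Ahsg, Fgb, Cps1 and Hnf4a) were detected in every library, with a summed level of 17358 to 54008 CPM (counts per 1000000 UMIs outside the 13 mitochondrial genes). Erythroid markers summed to 123.9 to 761.8 CPM and neutrophil markers to 11.2 to 190.8 CPM, and droplets without cells held more of both (309.4 to 6376 and 17.5 to 1582 CPM). The 5 cholangiocyte markers summed to more in hepatocytes than in such droplets in all 5 libraries, at 46.8, 35.6, 101.7, 44.9 and 188.3 CPM against 9.88, 31.1, 28.3, 29.95 and 36.6 CPM. Krt19, which defines these cells, was at 0 in the 4 adult libraries and not in P14. In the control and at 24 h Krt7 and Epcam were at 0 too, so Sox9 and Spp1 alone made up the sums there. The 6 mesenchymal markers summed to 46.1 CPM in P14 hepatocytes against 24.0 CPM in droplets and to 11.1 against 9.88 CPM at 96 h, with Col1a1 at 0 in both. The part of these cells in the members' levels was not tested. At least 3 markers of another cell class were found in 182, 710, 735, 674 and 285 hepatocytes, so removing these barcodes left 45 hepatocytes at 48 h. Without them the 10 members summed to 116.9, 22.8, 422.04, 296.5 and 58.9 CPM. Most of the barcodes removed from the adult libraries carried at least 3 erythroid markers. Such markers were found in 93, 658, 267, 370 and 234 hepatocytes with 0 members after the thinning described further on. With 1 or 2 members the counts were 43, 49, 310, 252 and 38, and with at least 3 members 4, 1, 130, 43 and 6. The part of free erythroid RNA and of depth in this removal was not tested. The gate held 3 barcodes in more than 1 library, and leaving them out moved the summed member level most at 48 h, from 217.01 to 217.5 CPM.

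The genes lie on 6 chromosomes in mm10 (GENCODE M21). Mcm3 (chr1:20802968-20820312) and Mcm6 (chr1:128331590-128359664) are both on the minus strand of chromosome 1, and Mcm4 (chr16:15623897-15637400) and Cdc45 (chr16:18780447-18811987) are both on the minus strand of chromosome 16. Mcm5 (chr8:75109569-75128439) and Cdt1 (chr8:122568015-122573554) are on the plus strand of chromosome 8 and Gins2 (chr8:120578633-120589304) is on its minus strand. Mcm2 is at chr6:88883474-88898780 and Mcm7 at chr5:138164583-138172422, both on the minus strand, and Cdc6 is at chr11:98907801-98923940 on the plus strand.

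Promoter stretches are shown because 6 of the 8 members matched in RefSeq's promoter table (GRCm38.p6, from 250 bases before to 50 after a start in RefSeq) held a form of the site bound by E2F factors, which drive genes of the G1 to S transition. Mcm4 and Gins2 were not matched. The forms searched were TTTCCCGC, TTTGGCGC and TTTCGCGC, on both strands and with overlaps allowed. Capitals mark them, and GCGGGAAA is TTTCCCGC read on the other strand. Each stretch runs 5′ to 3′ on the strand of the gene. For Mcm5 and Mcm6 it is the last 200 bases before the RefSeq start, and for the others 30 bases around a match, with 2 stretches for Mcm7. The GENCODE models of Cdc6 and Mcm7 begin further upstream than the RefSeq starts used, so the stretches of these 2 genes lie inside the positions given above. The stretches of Mcm3 and Cdt1 and the last one of Mcm7 lie after the RefSeq start, also inside these positions.
Mcm5 (chr8:75109309-75109508, plus strand): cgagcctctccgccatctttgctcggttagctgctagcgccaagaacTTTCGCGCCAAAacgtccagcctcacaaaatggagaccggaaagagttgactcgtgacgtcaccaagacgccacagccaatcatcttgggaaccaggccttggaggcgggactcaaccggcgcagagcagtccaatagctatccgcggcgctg
Mcm6 (chr1:128359706-128359905, minus strand): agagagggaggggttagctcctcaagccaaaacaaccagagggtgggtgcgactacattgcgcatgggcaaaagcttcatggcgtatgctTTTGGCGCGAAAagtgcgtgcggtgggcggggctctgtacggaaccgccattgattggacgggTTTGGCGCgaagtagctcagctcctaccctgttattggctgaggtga
Cdc6 (chr11:98908002-98908031, plus strand): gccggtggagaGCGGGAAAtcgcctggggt
Mcm7 (chr5:138172030-138172059, minus strand): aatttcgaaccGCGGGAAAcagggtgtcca
Mcm3 (chr1:20820266-20820295, minus strand): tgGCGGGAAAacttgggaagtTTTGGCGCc
Cdt1 (chr8:122568035-122568064, plus strand): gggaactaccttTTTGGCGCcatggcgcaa
Mcm7 (chr5:138171849-138171878, minus strand): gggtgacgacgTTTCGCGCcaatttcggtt
At least 1 of the 3 forms was present for 573 of the 27025 genes in the table (2.12%), or in 606 of its 32851 promoters (1.84%). TTTCCCGC was found for Mcm3, Mcm7 and Cdc6 (1.07% of all promoters), TTTGGCGC for Mcm3, Mcm5, Mcm6 and Cdt1 (0.514%), and TTTCGCGC for Mcm5, Mcm6 and Mcm7 (0.323%). In Mcm5 and Mcm6 a TTTCGCGC and a TTTGGCGC on opposite strands overlapped, which gives the run of 12 capitals. Mcm2 and Cdc45 held none of the 3. Both held TTTGAA, the core of an element known from genes of G2 phase and mitosis, which was found for 20.2% of all genes (17.9% of promoters) and in 10 of the 13 matched promoters of a list of 15 mitosis genes. CCAAT was found for Mcm2, Mcm3, Mcm5, Mcm6, Mcm7 and Cdc45, and for 41.1% of all genes (37.4% of promoters). These are matches of letters, not measured binding sites.

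All 10 genes were at least 2-fold higher at 24 h than in the control, and all 10 were at least 2-fold higher at 48 h. Calls of 2-fold were made on log2((CPM + 1)/(CPM + 1)), a scale that understates the change of genes with low values. Among 8674 genes with a mean of at least 5 CPM over the 5 libraries, 7.77% were at least 2-fold higher and 6.5% lower at 24 h, and 7.44% higher and 7.19% lower at 48 h. Cdc6 and Cdc45 lie below that mean, and the other 8 members above it. The median log2 ratio of the 10 members was 3.36 at 24 h and 2.45 at 48 h, against 0.0027 and -0.074 over all genes tested. At 96 h 4 members (Mcm5, Mcm6, Cdc6 and Gins2) were at least 2-fold higher and 0 lower, beside 4.31% and 1.56% of all genes, and the members' median was 0.85 against 0.051. Which members were called at 96 h depended on the settings. Cdc6 was not called with TMM or median-of-ratios scaling (log2 0.97 and 0.98) or with CPM over all UMIs (0.84). With no lower mitochondrial limit it was not called either (0.80). With at least 3% of UMIs from Alb, Apoa1 and Ttr, Cdt1 was called in addition (1.02). Without barcodes carrying at least 3 markers of another class, Gins2 had 0.70 in place of 1.88 and was not called, while Mcm3 and Mcm4 were (1.103 each). With 10 to 20% mitochondrial UMIs 6 members were called, Mcm3 and Cdt1 in addition. Mcm5 and Mcm6 were called in all of these. These comparisons share the control library.

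The 10 members together had 120.4 CPM (117.8 to 123.2) in P14 and 22.5 CPM (19.98 to 25.1) in the control. After PHx they had 417.1 CPM (408.1 to 426.3), then 217.01 CPM (210.7 to 223.4), then 64.1 CPM (59.9 to 68.6). Relative to the control the sum was 18.6-fold (16.6 to 20.9), 9.67-fold (8.60 to 10.9) and 2.86-fold (2.50 to 3.27) higher at the 3 times. No 2 libraries had overlapping intervals. In such sums, fewer cells with the RNA and less RNA per cell cannot be told apart, and cell-by-cell values follow further on.

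**Figure D1:**
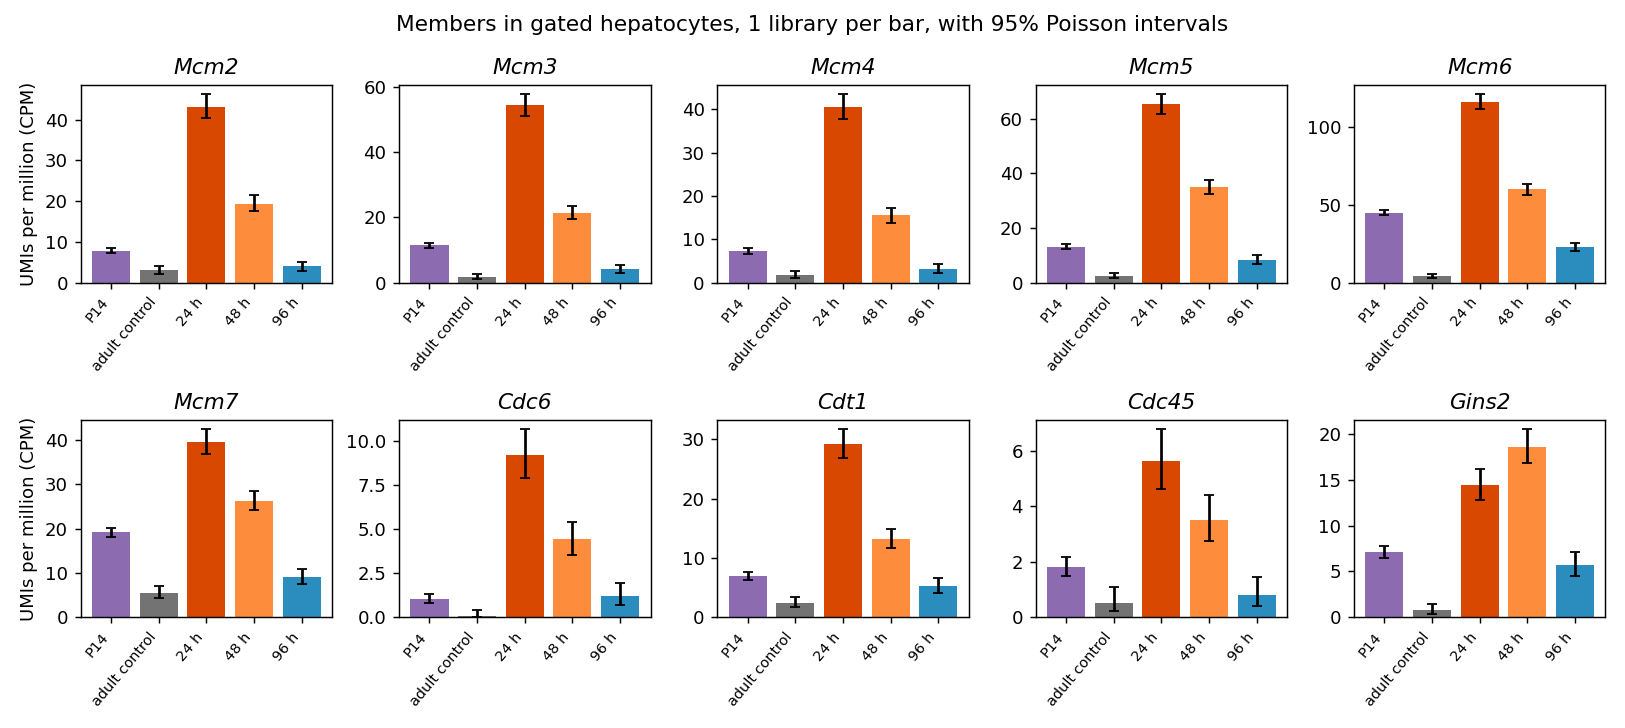
Level of each of the 10 genes in gated hepatocytes (y axis, CPM outside mitochondrial genes, with its own scale per panel), by library (x axis). Bars are 1 library each and error bars are 95% Poisson intervals for counting error. In 9 of 10 panels the 24 h bar is the highest, and in the Gins2 panel it is the 48 h bar.

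Mcm2 to Mcm7 are the 6 subunits of the ring. Mcm6 had 44.9, 3.98, 115.8, 59.7 and 22.7 CPM, a 29.1-fold (22.2 to 39.0) difference between 24 h and the control. Mcm5 had 13.1, 2.40, 65.2, 34.9 and 8.26 CPM, with a 27.1-fold (19.1 to 39.8) difference. Mcm3 had 11.4, 1.80, 54.3, 21.4 and 4.02 CPM, with a 30.1-fold (20.1 to 47.3) difference. For these 3 subunits the libraries ran from high to low as 24 h, 48 h, P14, 96 h and control, and neighbours in that order differed beyond their counting intervals.

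Mcm2 had 7.87, 3.00, 43.2, 19.4 and 3.94 CPM, and Mcm4 had 7.20, 1.80, 40.5, 15.5 and 3.13 CPM. Both followed the same order, but for Mcm2 the 96 h library lay within counting error of the control, at 1.31-fold (0.855 to 2.03). Mcm7 had 19.2, 5.56, 39.6, 26.3 and 9.08 CPM, again in that order. Its 7.13-fold (5.61 to 9.18) difference between 24 h and the control was the smallest of the 6, and its interval lay below those of the other 5. The 3′ end of Mcm7 overlaps Cops6 on the opposite strand in the annotation, and Cops6 had 90.7 to 113.3 CPM in the 5 libraries. Whether counting used strand is not given in the sources used here, so reads of the pair may not be told apart.

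Because the 6 subunits form 1 ring, their shares of the Mcm2 to Mcm7 UMIs were compared between libraries (shares of captured RNA, not of protein). Mcm6 made up 21.5% (16.5 to 27.1) in the control. Its share was 32.3% (31.2 to 33.4) at 24 h, then 33.7% (32.2 to 35.2) and 44.4% (40.6 to 48.2), while P14 had 43.3% (42.1 to 44.5). Mcm7 made up 29.96% (24.3 to 36.1) in the control and 11.04% (10.3 to 11.8) at 24 h, and stood at 14.8%, 17.8% and 18.5% in the 48 h, 96 h and P14 libraries. These are shares of 1 sum: the levels of both genes were higher at 24 h than in the control, Mcm7 by the smaller factor. Mcm2, Mcm3 and Mcm4 each had a smaller share at 96 h and in P14 than at 24 h: for Mcm3 it was 15.1% (14.3 to 16.01) at 24 h and 7.86% (5.96 to 10.1) at 96 h. In droplets without cells Mcm6 made up 18.1% to 35.4% and Mcm7 18.97% to 44.0%. In each library the hepatocytes' share was above the droplets' for Mcm6 and below it for Mcm7. Intervals were not computed for the droplets' shares.

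**Figure D2:**
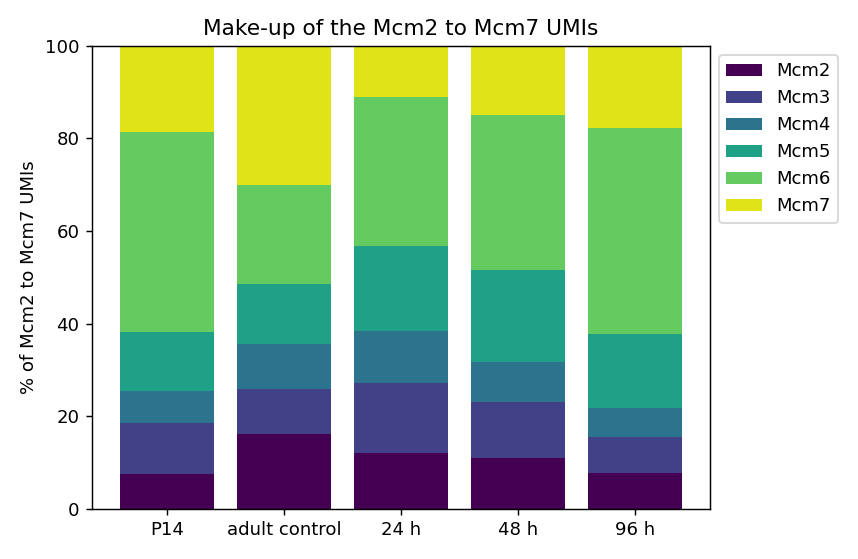
Share of each subunit (y axis, percent) in the Mcm2 to Mcm7 UMIs of gated hepatocytes, by library (x axis). The Mcm6 segment is 21.5% in the control and 44.4% at 96 h, and the Mcm7 segment is widest in the control, at 29.96%.

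Cdc6 and Cdt1 are the factors that place the ring on DNA. Cdc6 had 1.05, 0.075 (1 UMI), 9.22, 4.42 and 1.19 CPM. Its ratio between 24 h and the control was 122.8, with a counting interval of 21.8 to 4878 because of that single UMI. Cdt1 had 6.94, 2.48, 29.2, 13.2 and 5.28 CPM, with an 11.8-fold (8.30 to 17.3) difference. Both loaders were highest at 24 h, and for Cdc6 P14 and 96 h did not differ beyond counting error. The 3′ end of Cdt1 lies in Gm20388, a gene model on the same strand, which had 0 UMIs in the hepatocytes of all 5 libraries.

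Cdc45 and Gins2 belong to the activated helicase. Cdc45 had 1.81, 0.526 (7 UMIs), 5.64, 3.50 and 0.818 CPM, with the control and 96 h within counting error of each other. Gins2 had 7.08, 0.826 (11 UMIs), 14.4, 18.6 and 5.73 CPM, and here P14 and 96 h overlapped. It was the member with its highest level at 48 h, 1.29-fold (1.104 to 1.51) above 24 h, whereas the other 9 were at 0.383 to 0.664 of their 24 h level. Gins2 overlaps Gse1 on the opposite strand at its 3′ end, and Gse1 had 11.8 CPM at 24 h and 10.2 CPM at 48 h.

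The size of some of these differences moved by over 1.5 times with the gate. For 24 h over the control, the log2 ratio of Mcm5 was 4.28 and became 5.20 with 10 to 20% mitochondrial UMIs. With at least 3% of UMIs from Alb, Apoa1 and Ttr, Mcm4 had 2.94 in place of 3.89 and Mcm6 3.89 in place of 4.55. Without barcodes carrying other markers Gins2 had 1.97 in place of 3.08 and Cdc45 2.74 in place of 2.12. All of these stayed past 2-fold.

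From 24 h to 48 h, 4 members were at least 2-fold lower (Mcm2, Mcm3, Mcm4 and Cdt1) and 0 were higher, where 1.59% of all genes were lower and 1.48% higher. The smallest ratio was that of Mcm4, at 0.383 (0.335 to 0.436) of its 24 h level. These calls depended on the gate. With at least 3% of UMIs from Alb, Apoa1 and Ttr, Mcm2 and Mcm3 were called. With 10 to 20% mitochondrial UMIs Mcm2 was not called (-0.79 on the log2 scale) and Mcm6 was (-1.05). Without barcodes carrying at least 3 markers of another class, Cdc6 and Cdc45 were called in place of the 4. From 48 h to 96 h all 10 were at least 2-fold lower, beside 3.39% of all genes lower and 4.29% higher, and the summed level was 0.296 (0.274 to 0.318) of that at 48 h. Cdc6 and Cdt1 were not called with 10 to 20% mitochondrial UMIs (-0.56 and -0.63 on the log2 scale), nor was Cdc6 without barcodes carrying other markers (-0.62). Counted in either direction, 14.3%, 14.6% and 5.87% of all genes were past 2-fold at the 3 times against the control, 20.3% in P14, 3.07% between 24 h and 48 h, and 7.68% between 48 h and 96 h.

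In P14 hepatocytes 8 of 10 members were at least 2-fold higher than in the control, all except Cdc6 and Cdc45, where 6.96% of all genes were higher and 13.4% lower. The median of all genes was -0.26 on the log2 scale in this comparison and 0.066 with TMM factors. After subtracting that median, the members ranged from 1.141 (Cdc45) to 3.46 (Mcm6) on the log2 scale, and 10 of 10 were called with TMM or median-of-ratios scaling. Cdt1 was not called with no lower mitochondrial limit (0.96) or without barcodes carrying at least 3 markers of another class (0.91). Under the latter Cdc6 and Cdc45 were called (1.04 and 1.44), and Gins2 had a log2 ratio of 1.11 in place of 2.15. With 10 to 20% mitochondrial UMIs Gins2 had 3.01, and Mcm5 had 2.86 in place of 2.05. Mcm6 was 11.3-fold (8.60 to 15.1) and Gins2 8.57-fold (4.74 to 17.3) above the control, and Mcm2 2.62-fold (1.90 to 3.71). Every member was lower in P14 than at 24 h and at 48 h.

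A list of origin recognition and loading control held Orc1 to Orc6, the licensing inhibitor Gmnn, Mcmbp, Mcm8 and Mcm9. Mcm8 and Mcm9 are not subunits of the ring, and their place in the list is not a statement that they act in licensing. Of the list, 4 of 10 genes were at least 2-fold higher at 24 h, namely Orc1, Orc6, Gmnn and Mcm8, with a median log2 ratio of 0.82. With 1 CPM added to both values, the scale used for all ranks within lists, Orc6 had the largest ratio (22.5 CPM against 4.43) and Orc5 the smallest (10.1 against 10.7 CPM). Without it the ratios of Orc1 and Mcm8 (6.71 against 0.976 CPM) were above that of Orc6. At 48 h the largest on that scale was that of Mcm8 (6.29 against 0.976 CPM) and the smallest again that of Orc5 (7.30 CPM). Orc1 had 0 UMIs in the control, and against a floor of 3 UMIs in that library it was at least 6.596-fold higher at 24 h and at least 5.33-fold higher at 48 h. With Orc1 at that floor, the 4 genes called at 48 h became 3. In P14 1 gene of the list was higher and at 96 h 0 were.

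Of 10 further genes of helicase activation, 7 were at least 2-fold higher at 24 h and 1 was lower, with a median of 1.38 (1.33 and 6 higher with Cdc7, at 0 UMIs in the control, at the floor). Wdhd1, a fork scaffold, had the largest ratio on the scale with 1 CPM added at 24 h (8.76 against 1.05 CPM) and Dbf4, the activator of the Cdc7 kinase, at 48 h (44.5 against 5.11 CPM). Without that addition the ratios of Ticrr and Gins3, at 1 and 3 UMIs in the control, were larger at both times. Mcm10, which helps to activate the ring, had the smallest at both times. Its levels were 7.36, 133.1, 19.8, 24.0 and 95.8 CPM, with a log2 ratio of -2.69 at 24 h and 1773 UMIs in the control. Mcm10 was thus highest in the library where the Mcm2 to Mcm7 ring was lowest.

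Of 22 replication fork genes 19 were at least 2-fold higher at 24 h (median 1.97), from Fen1, a flap nuclease, at 3.27 to Pola2, a subunit of the priming polymerase, at 0.65 on the log2 scale. At 48 h 18 were higher (median 1.70), with Lig1, which joins Okazaki fragments, at 3.05 and Pola2 at 0.080. Pole2, a polymerase subunit with 0 UMIs in the control, was at least 8.42-fold higher at 24 h and at least 6.61-fold higher at 48 h against the same floor. All 15 mitosis genes were higher at both times, with a median of 3.19 and then 4.73, and 13 of 15 were at least 2-fold higher at 48 h than at 24 h. On the same log2 scale Mki67 had the largest mitosis ratio at 24 h (4.298) and Ube2c at 48 h (5.67), and Ccnb2 (1.36) and Bub1 (2.95) the smallest. Among 8 genes that respond to cell handling, 0 were higher and 2 lower at 24 h, and 4 were higher and 1 lower at 48 h and again at 96 h, with medians of 0.31, 0.91 and 1.02. The largest log2 ratios of that list were those of Atf3 at 24 h (0.99) and Fosb at 48 h (1.22), and the smallest was that of Hspa1b at both times (-2.22 and -3.08). Their part in the members' levels was not tested.

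**Figure D3:**
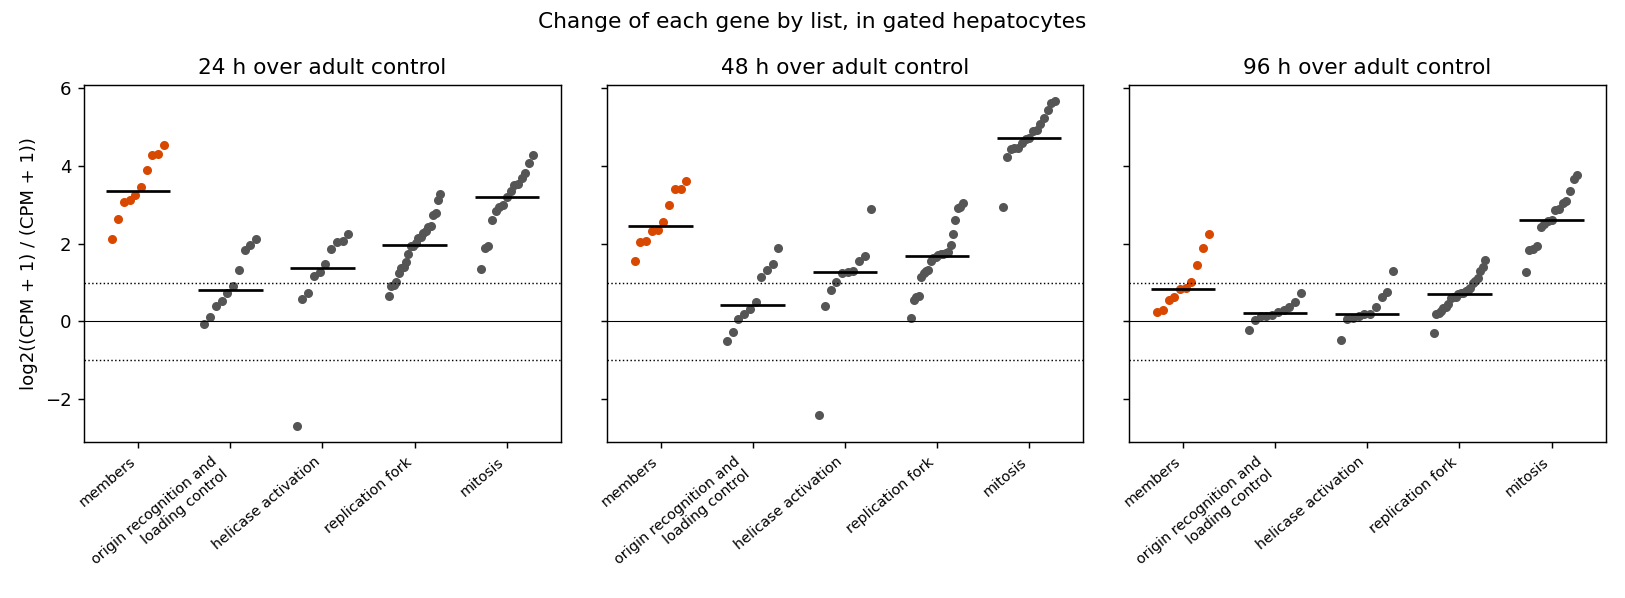
Log2 ratio over the adult control (y axis) of each gene in the members and in 4 other lists (x axis), in 1 panel for each time after PHx. Dots are genes, short lines are list medians and dotted lines mark 2-fold. The members' medians are 3.36, 2.45 and 0.85, and the mitosis median is highest at 48 h, at 4.73. The low dot in helicase activation is Mcm10.

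Detection in single cells was compared after thinning each hepatocyte to 5000 UMIs. At least 3 of the 10 members were found in 18.2% (16.03 to 20.5) of hepatocytes at 24 h and 6.40% (4.72 to 8.44) at 48 h. By 96 h the share was 1.56% (0.807 to 2.70). It was 2.99% (2.31 to 3.81) in P14 and 0.216% (0.0262 to 0.779, 2 cells) in the control. Without thinning the 24 h and 48 h shares were 55.5% and 49.2%, so the gap between these libraries was wider at equal depth, and the others were 6.23%, 27.2% and 1.08%. At least 1 member was found in 28.7%, 7.03%, 62.4%, 44.5% and 14.3% of thinned cells. Mcm6 was found in 30.9% (28.3 to 33.7) of cells at 24 h and 14.96% (13.5 to 16.6) in P14. At full depth, which differs between libraries, all 6 ring subunits were found together in 66, 1, 114, 48 and 6 cells, or 3.13%, 0.108%, 9.74%, 6.68% and 0.778%.

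**Figure D4:**
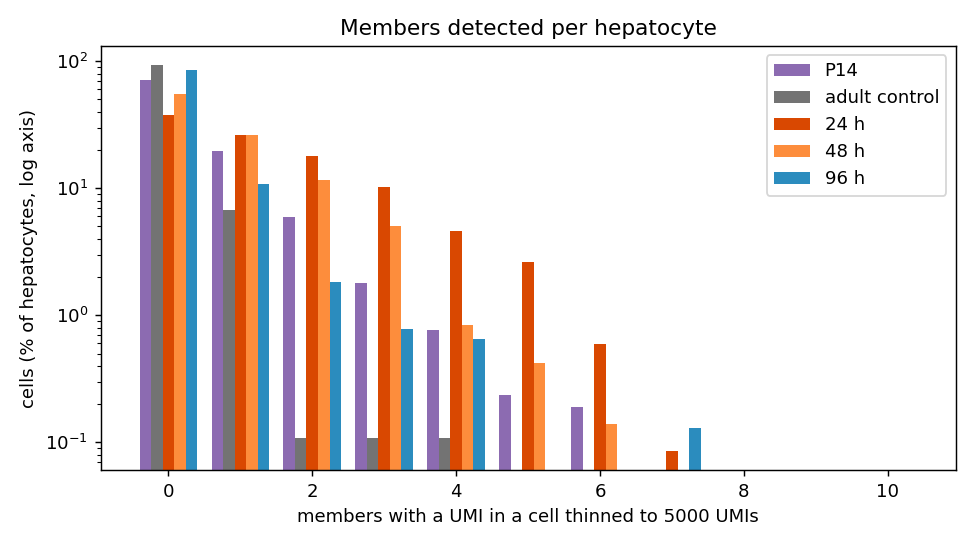
Share of hepatocytes (y axis, percent, log axis) by the number of members with a UMI after thinning to 5000 UMIs (x axis), with bars coloured by library. From 3 to 6 members the 24 h bar is the highest, and bars are missing where no cell had that number.

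Free RNA sets a floor to these shares. Droplets without cells had summed member levels of 120.1, 23.2, 314.1, 193.3 and 59.04 CPM, near those of the hepatocytes except at 24 h. They hold fewer UMIs each than hepatocytes. The free-RNA estimate takes a droplet with a hepatocyte to hold as many free UMIs as one without a cell. By it, free RNA would account for 0.870% (48 h) to 9.50% (control) of the members' UMIs in hepatocytes. That assumption was not tested. Erythroid markers had 719.3 CPM in hepatocytes and 1092 CPM in droplets in the control, and 761.8 and 6376 CPM at 48 h. No estimate was scaled to such markers. The median depth of droplets without cells was 1330 UMIs in the control and 287 to 775 UMIs in the other libraries. In the control it is thus above the minimum of 1000 UMIs set for barcodes of other classes. Barcodes with neutrophil markers were read as a background class, because mature neutrophils do not divide. Whether the class also held dividing precursors was not tested. With cells thinned to 1000 UMIs a member was found in 2.76% (0.757 to 6.91) of neutrophil barcodes and 24.9% of hepatocytes at 24 h, and in 1.22% (0.148 to 4.34) and 14.9% at 48 h. Median depths were 5346 and 19562 UMIs, and 9063.5 and 35432 UMIs. At 96 h the shares were 4.41% (0.919 to 12.4) and 3.37% at median depths of 3775 and 22075 UMIs, and in P14 7.32% (1.54 to 19.9) and 7.74% at 7223 and 38922.5 UMIs. The neutrophil shares there rest on 68 and 41 barcodes. The control had 17 neutrophil barcodes, too few to use, and its erythroid barcodes gave 1.02% (0.0258 to 5.55) against 2.27% (1.41 to 3.45) in hepatocytes, at 11852.5 and 18527 UMIs. So in the 96 h, P14 and control libraries the share did not differ from the background class beyond counting error. The intervals of that class are wide and its barcodes are shallower, so the comparison cannot decide whether these shares are background. No expression is read from the share alone. By the same estimate and its untested assumption, free RNA would account for 1.47% of the members' UMIs in P14 hepatocytes and 4.09% at 96 h. The summed level in neutrophils, 103.8 CPM (72.3 to 144.4) in P14 and 45.7 CPM (23.6 to 79.7) at 96 h, also overlapped that of the hepatocytes. It rests on 35 and 12 UMIs. Erythroid barcodes of the control had 1.96 CPM (0.238 to 7.09) against 22.5 CPM (19.98 to 25.1) in its hepatocytes, without overlap. At 96 h erythroid barcodes had a share of 0.541% (0.0137 to 2.97) against 3.37% (2.21 to 4.90) in hepatocytes. Their level there was 80.7 CPM (66.1 to 97.6) against 64.1 CPM (59.9 to 68.6), and both pairs of intervals overlapped. By member, Mcm6 had 44.9 CPM in P14 hepatocytes against 5.93 in P14 neutrophils, and 22.7 against 3.80 CPM at 96 h. Mcm3, Mcm5, Mcm7, Cdc45 and Gins2 were higher in the P14 neutrophils than in the hepatocytes (Mcm7 20.8 against 19.2 CPM, Gins2 14.8 against 7.08 CPM). The same held for Mcm4, Cdt1, Cdc45 and Gins2 at 96 h. Cdc45 had 20.8 against 1.81 CPM in P14 and 7.61 against 0.818 CPM at 96 h, and was higher in neutrophils at 24 h and 48 h too. In P14 droplets without cells Cdc45 had 2.04 CPM, below its level in these neutrophils.

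Members were found in the same cells more often than the product of their shares gives. Over the 44 of 45 pairs for which that product was at least 1 cell at 24 h, the median ratio was 1.59 (lowest 0.552, highest 3.05) and 42 pairs were above 1. In P14 the median was 2.87 over 30 pairs, all above 1, and at 48 h 1.72 over 32 pairs, 30 above 1. At 96 h only 2 pairs could be used (median 5.29), and in the control none. Without thinning, so that depth differs between cells, 34 pairs could be used at 96 h (median 4.12, all above 1) and 12 in the control (median 2.42, 11 above 1). The pairs share cells and members. Pairs of other genes were not examined, so whether such ratios are particular to the members was not tested. The part of RNA content outside mitochondrial genes in these ratios was examined only by an alternative that thinned cells to 3500 such UMIs. Its value is given at the end for the 96 h library only.

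Among ring subunits at 24 h all 15 pairs lay between 1.35 and 1.68. Among pairs with a product of at least 1 cell, the loaders Cdc6 and Cdt1 had the highest ratio, with 10 cells where the product gave 3.28. Cdc6 was found with at least 1 other member in 30 of its 30 cells. Cdc45 was found with Mcm3 in 2 cells where the product gave 3.62, the lowest ratio, and 55.0% of its 20 cells held another member, against 61.7% of the cells without it. The numbers for Cdc45 are too small to set it apart. Under the same limit of at least 1 cell, the highest ratio at 48 h was that of Mcm3 and Mcm4, found together in 12 cells where the product gave 3.27. In P14 it was that of Mcm3 and Cdt1, with 13 cells where the product gave 2.44.

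Cells with members held other replication genes too. At 24 h at least 3 of the 22 fork genes were found in 56.3% (49.4 to 63.1) of cells with at least 3 members and 9.32% (6.77 to 12.4) of cells with 0 members. At 48 h these shares were 67.4% (51.98 to 80.5) and 7.52% (5.13 to 10.6), in P14 65.1% (52.03 to 76.7) and 3.13% (2.31 to 4.14), and at 96 h 91.7% (61.5 to 99.8, 11 of 12 cells) and 3.03% (1.86 to 4.63). The intervals of cells with many and with 0 members did not overlap in any of these 4 libraries.

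Mitosis genes were set against the members in the same way. Cells with at least 3 of the 15 mitosis genes are called mitosis-positive here. The name stands for that count of genes, and whether such cells were in mitosis was not tested. In P14 they made up 6.26% (5.09 to 7.60) of hepatocytes with 0 members and 53.97% (40.9 to 66.6) of those with at least 3, and at 96 h 3.78% (2.46 to 5.53) and 41.7% (15.2 to 72.3, 12 cells). At 24 h the values were 4.77% (2.98 to 7.20) and 19.7% (14.6 to 25.7). At 48 h they were 36.3% (31.6 to 41.3) and 39.1% (25.1 to 54.6), and these intervals overlap. The difference between libraries in this respect was not tested.

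Gins2 was found in 16.9% (10.9 to 24.5) of mitosis-positive and 3.56% (2.52 to 4.87) of mitosis-negative cells at 24 h, and in 11.1% (7.62 to 15.5) and 4.01% (2.39 to 6.26) at 48 h, without overlap at either time. Mcm6 was found in 56.2% (47.2 to 64.8) and 27.8% (25.1 to 30.6) at 24 h, but in 17.04% (12.8 to 22.1) and 16.7% (13.4 to 20.5) at 48 h. Mcm2 was found in 3.33% (1.54 to 6.23) and 7.13% (4.93 to 9.91) at 48 h, with overlapping intervals. At 24 h all 10 members were more frequent in mitosis-positive cells, without overlap for Mcm6, Cdt1 and Gins2. At 48 h Mcm2, Mcm3, Mcm4 and Cdc6 were less frequent in them, each within overlapping intervals.

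**Figure D5:**
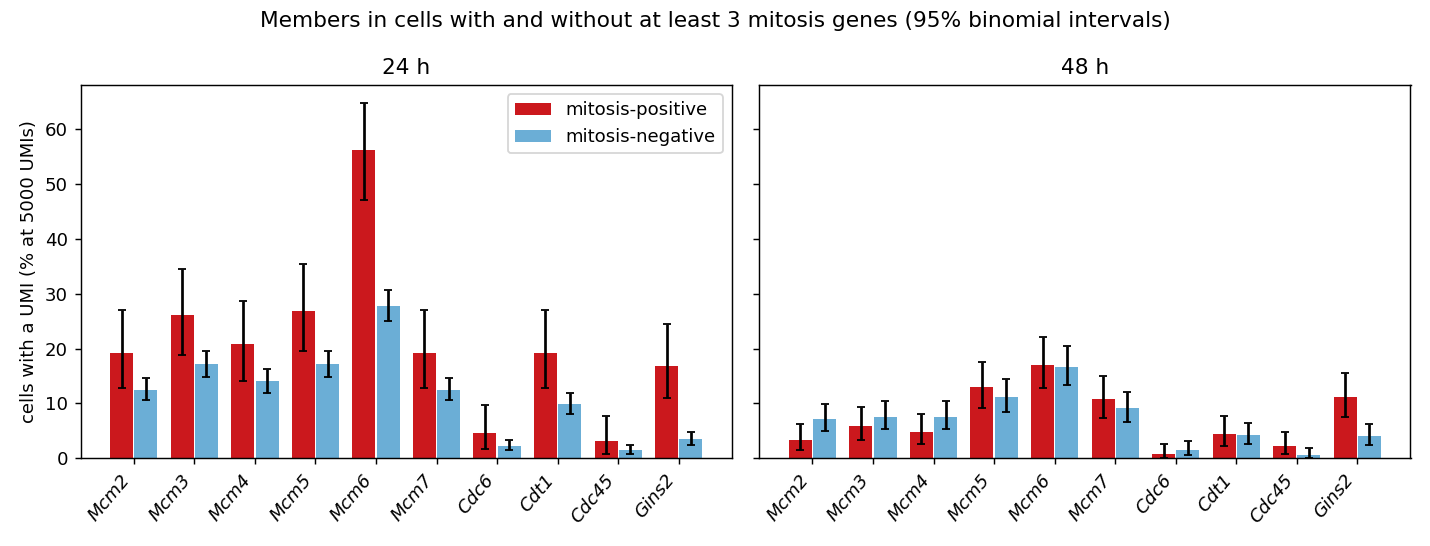
Share of hepatocytes with a UMI of each member (y axis, percent at 5000 UMIs per cell) in mitosis-positive and mitosis-negative cells, at 24 h and 48 h. Error bars are 95% binomial intervals. At 24 h each mitosis-positive bar is above its mitosis-negative bar, and at 48 h Gins2 is the member whose intervals do not overlap, 11.1% against 4.01%.

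Depth and gate values of member-rich cells were near those of the rest. At 24 h, cells with at least 3 members had a median of 20256 UMIs, 23.8% mitochondrial UMIs and 2.01% from the 3 gate genes, against 20016, 23.8% and 2.18% in cells with 0. In P14 the 63 cells with at least 3 members had 2767 CPM of erythroid markers and 89.6 CPM of B cell markers, against 43.7 and 4.05 CPM in cells with 0 members. At least 3 erythroid markers were found in 4 of these 63 cells and in 93 of 1502, and at least 3 B cell markers in 2 and in 4. Without all barcodes that carry at least 3 markers of another class, the share of P14 hepatocytes with at least 3 members was 3.17%.

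Members also differed along marker genes of the liver lobule. Hepatocytes of each library were ranked by the ratio of pericentral (near the central vein) to periportal (near the portal vein) marker UMIs and divided into 3 equal parts. At 24 h the summed members had 295.7 CPM (282.8 to 309.0) in the periportal part, 462.1 (446.1 to 478.5) in the middle and 502.2 (484.4 to 520.5) in the pericentral part, and 12.8%, 18.97% and 22.8% of cells held at least 3 members. Median depths of these parts were 20412.5, 20512 and 17604.5 UMIs. At 96 h the levels were 41.5, 51.7 and 92.8 CPM, at 19467, 21611 and 26163 UMIs, and 1.56%, 5.45% and 12.45% of cells were mitosis-positive. The mitosis-positive shares of the 3 parts were 6.67%, 11.5% and 15.1% at 24 h, 38.3%, 37.5% and 36.8% at 48 h, 11.8%, 11.7% and 7.41% in P14, and 0.324%, 0.325% and 0.649% in the control. Intervals were not computed for these shares, and no direction is read from the values at 48 h and in the control. At 48 h the members' levels were 210.1, 190.4 and 250.9 CPM, in the control 14.97, 24.6 and 27.8 CPM, and in P14 125.03, 124.8 and 111.8 CPM. The pericentral part was highest in the 4 adult libraries, in the control within counting error of the middle, and lowest in P14. The marker genes themselves differed between libraries (3 of 8 pericentral genes higher and 3 lower at 24 h, 2 of 8 periportal genes lower), so the parts are ranks within a library and not places in the tissue.

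The genes most like the members were found by correlating, over the 1170 hepatocytes at 24 h thinned to 5000 UMIs, the log count of each of 6225 genes with the number of members found. The highest coefficients were those of Uhrf1 (0.38), a reader of newly replicated DNA, Rrm2 (0.38), a subunit of ribonucleotide reductase, and Pcna (0.37), the sliding clamp of the fork. H2afz, Slfn9, Hells, Zfp367, Slbp, Hmgb2 and Atad2 followed with 0.35 to 0.29, where the median over all genes was 0.0082 and the 99th percentile 0.16. The cells share a library, and the values are descriptions with no test. In P14 the coefficient of Uhrf1 was 0.38 and that of Pcna 0.31, and at 48 h they were 0.18 and 0.37. Uhrf1 had 6.09, 0.676, 48.1, 13.5 and 5.06 CPM, the same order of libraries as the ring. Pcna, Slfn9, Hells and Atad2 also had that order. H2afz and Hmgb2 were highest at 48 h (744.2 and 136.2 CPM, against 486.9 and 106.0 CPM at 24 h). Rrm2, Zfp367 and Slbp were highest at 24 h but departed from the order among P14, 96 h and the control.

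Other cell classes carried the members as well. T or NK barcodes had 309.04 CPM (285.9 to 333.6) in the control. Their levels after PHx were 302.7 (272.1 to 335.8), 286.5 (267.9 to 306.02) and, by 96 h, 379.6 CPM (342.01 to 420.2), so the control, 24 h and 48 h overlapped. B barcodes had 88.5 CPM (60.5 to 125.0) in the control and 249.1 CPM (193.1 to 316.4) at 24 h, and erythroid barcodes 1.96 CPM (0.238 to 7.09, 2 UMIs) and 80.02 CPM (67.2 to 94.6), so a higher level at 24 h was not seen in hepatocytes alone. How much of that is free RNA was not tested. In P14, B barcodes had 1109 CPM (1017 to 1206), erythroid barcodes 995.1 CPM (890.0 to 1109) and T or NK barcodes 509.6 CPM (452.4 to 572.1), all above the P14 hepatocytes.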

How the data were processed

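The authors deposited raw UMI counts, whole numbers with no normalization, as 1 sparse matrix per library with 6794880 barcodes each. Per the submitters' processing notes bcl2fastq 2.17.1.14, Cell Ranger and Seurat 3.1 were used with mm10, and per the file headers the software version was 3.0.2. Library totals were 80927744 to 136110607 UMIs. The members and gene lists were chosen with earlier results of these data known.

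Hepatocytes were gated as described, with no clustering and no doublet caller; removing barcodes with at least 3 markers of another class was an alternative. Counts were summed over gated cells. Free RNA was read from barcode ranks 20001 to 60000. Poisson, Clopper-Pearson and conditional binomial intervals (exact, scipy 1.17.1) cover counting error only. Thinning drew UMIs without replacement with a fixed seed. Ratios were made for 6 comparisons of libraries without tests, and edgeR 4.0.16 supplied TMM factors only. The procedures were tested on simulated data. Barcodes of at least 1000 UMIs outside the gate were put in another class by at least 3 of its markers. The text names all members, the largest and smallest ratio of each list at 24 h and 48 h, genes at 0 in the control, and the 10 most alike genes found in at least 5% of cells; Gmnn, Ticrr and Gins3 were named after their values were seen. Alternatives were the limits of the gate, scaling, pseudocount, filter, free-RNA subtraction, fold, depth and number of members. In GENCODE M21, 31011 of 31053 gene identifiers were found. Protein sequences were not used here.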

Additional observations from a re-analysis of the deposited data

Results flagged for a closer look

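Barcodes with hepatocyte transcripts but under 10% mitochondrial UMIs lie outside the hepatocyte gate and entered the comparisons only in the alternative with no lower mitochondrial limit. The members were above their adult control level in them. The summed level of the 10 members in them was 117.5 CPM (98.01 to 139.7) in P14, 227.9 CPM (212.7 to 243.9) at 24 h and 159.9 CPM (145.1 to 175.8) at 48 h, against 41.1 CPM (29.7 to 55.3) in the adult control. At 96 h it was 60.7 CPM (55.2 to 66.6), and its interval touches that of the control. At least 3 members were found in 12.2% (8.86 to 16.2) of 328 such barcodes at 24 h and in 1.33% (0.162 to 4.73) of 150 in the adult control. The level at 24 h was thus lower than that of gated hepatocytes and the level in the control higher.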

How the results depend on the processing

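The 10 members called at 24 h and at 48 h against the control stayed at 8 to 10 and 7 to 10 under all alternatives, and no ratio that had been called changed sign. With a pseudocount of 10 CPM the members called became 1 at 96 h, 1 in P14, 1 from 24 h to 48 h and 4 from 48 h to 96 h. With a 4-fold limit they became 1, 4, 0 and 3. From 24 h to 48 h the count was 2 with the 3% gate and 2 without barcodes carrying markers of another class. A larger pseudocount and limit lower counts by construction, and for the gates the cause was not tested.

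The share of hepatocytes with at least 3 members, in the order used above, was 27.2%, 1.08%, 55.5%, 49.2% and 6.23% without thinning, and 0.427%, 0%, 3.33%, 0.556% and 0.130% for at least 5 members. In the control it was 0% with 10 to 20% mitochondrial UMIs, with the 3% gate and without barcodes carrying other markers. At 24 h it was 21.2% with at least 10000 UMIs and 11.8% with the 3% gate, and at 48 h 10.3% with 10 to 20% mitochondrial UMIs and 13.3% without barcodes carrying other markers (45 cells). The cause was not tested.

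Co-detection medians were compared with the spread between pairs. The P14 value was 2.26 without thinning and the 24 h value 1.37 with 10 to 20% mitochondrial UMIs. The 96 h value was 4.23 with no lower mitochondrial limit, 3.95 with at least 10000 UMIs, 2.89 with the 3% gate, 4.12 without thinning, 4.62 with thinning to 3500 UMIs outside mitochondrial genes and 2.57 with another seed. The reported value of 5.29 rests on 2 pairs and the one without thinning on 34, and it could not be computed with 10 to 20% mitochondrial UMIs or without barcodes carrying other markers. The 0.5% gate, the removal of the 8% of cells with most UMIs and the other seed were chosen after seeing the data. No paired analysis was possible because each group has 1 library. Depth limits Cdc6, Cdc45 and Gins2 in the control, at 1, 7 and 11 UMIs.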
